A study of Mus musculus with 20 samples.

Results

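Gng13, the gene of the G protein subunit gamma 13, is described here beside 7 other gamma subunit genes that serve as comparison: Gng2, Gng3, Gng4, Gng5, Gng10, Gng11 and Gng12. The members were chosen by the gene name of their probes, which gave 8 genes and 13 probes among the 27672 genes or names on the array. Gng13 itself was selected on its measured values, the log2 ratio of gonad over reference signal in the 4 groups of these same arrays. Its levels and differences are therefore given as a description with no test. No XX gonad was profiled by itself, so these data do not measure whether Gng13 is higher in the ovarian pathway.

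RNA of 1 pair of XY gonads per array was compared with a common reference on 20 arrays of 2 colours. The gonads came from embryos at day 11.5, with 17 to 21 tail somites, and were parted from the mesonephros before RNA extraction; 200 to 450 ng of RNA was amplified for each array. There were 5 pairs from each of 4 groups: the inbred strains C57BL/6J and 129S1/SvImJ and their reciprocal hybrids, (B6x129S1)F1 and (129S1xB6)F1. The gonad was labelled with Cy5 on every array and the dyes were never swapped. The reference, labelled with Cy3, pooled 4 XY gonad pairs, 3 XX gonad pairs, 4 XY embryos and 2 XX embryos from a cross of Sox9-ECFP(C57BL/6J) with CD-1 mice. Embryos came from several litters. The labels do not say whether the letter in a sample name marks a litter, so p-values measure the spread between gonad pairs of which some may share a mother. The comparison addresses what marks the C57BL/6J gonad, which is prone to sex reversal.

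A G protein gamma subunit is a small lipid-anchored protein that forms a tight dimer with a beta subunit. Receptors at the cell surface release this dimer from the alpha subunit, and it then acts on phospholipase C beta enzymes, adenylyl cyclases, potassium channels and PI3-kinase gamma. Gng13 is best known from taste, olfactory and retinal bipolar cells, and it has also been listed among genes of the early ovarian programme.

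The results turn on 1 probe for Gng13, so its sequence is shown with 3 probes of other gamma subunits, each holding at least 1 forward frame without a stop codon. All are 60 bases long, are written 5′ to 3′ and were read from the deposited scanner files. Capitals mark the longest run that a probe shares with a probe of any other member.
Gng13: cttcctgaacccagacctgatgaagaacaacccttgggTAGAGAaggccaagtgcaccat
Gng2: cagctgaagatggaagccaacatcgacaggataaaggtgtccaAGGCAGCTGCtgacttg
Gng5: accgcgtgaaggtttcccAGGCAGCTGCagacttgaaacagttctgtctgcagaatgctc
Gng3: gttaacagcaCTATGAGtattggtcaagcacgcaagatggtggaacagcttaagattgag

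The probes of Gng2 and Gng5 share the same run of 10 bases, whereas the run that the Gng13 probe shares with a member is 6 bases long. Over the other 41173 gene probes of the array, the longest run shared with the Gng13 probe was 13 bases, found in 4 probes, and 0 probes shared 20 bases or more. By the gene table of assembly GRCm38.p6, Gng13 lies on chromosome 17 and has 2 RefSeq transcripts. The exon that the probe covers was not mapped here. Whether the strains differ in sequence under the probe was not examined, and no second Gng13 probe was there to compare.

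By its 1 probe, Gng13 was highest in C57BL/6J gonads, lowest in 129S1/SvImJ gonads and between them in both hybrids. All values below are log2 of Cy5 over Cy3 after background correction and normalisation within the array, so that 0 means the level of the reference pool. In C57BL/6J the ratio was 2.54 in pair H1, 1.83 in H2, 2.69 in H3, 2.12 in H4 and 2.68 in K2. In 129S1/SvImJ it was -0.24 in A3, -0.07 in A4, -0.43 in A6, 0.25 in D4 and -0.52 in G3. The strains did not overlap, and the lowest C57BL/6J pair lay 1.58 above the highest 129S1/SvImJ pair. In (B6x129S1)F1 the ratio was 1.61 in C2, 0.81 in C3, 0.61 in C4, 0.76 in E1 and 0.19 in F2. In (129S1xB6)F1 it was 1.27 in L1, 0.61 in L2, 0.94 in L4, 0.84 in M3 and 0.82 in M6. Every hybrid pair was below every C57BL/6J pair, by at least 0.22. Against 129S1/SvImJ the hybrids touched: 9 of 10 hybrid pairs were above all 129S1/SvImJ pairs, and F2 was 0.06 below D4.

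**Figure D1:**
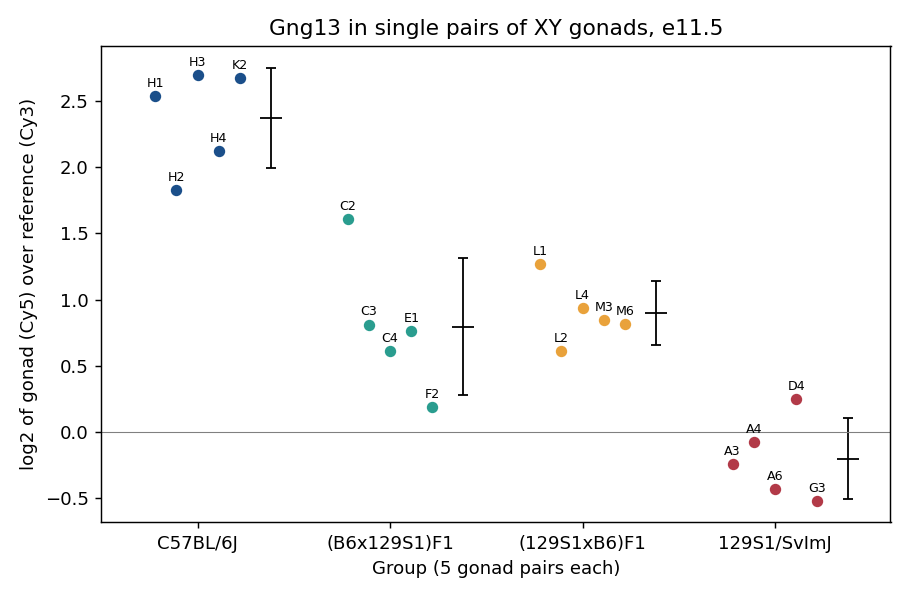
Each point is 1 gonad pair, named as in the labels; the y axis is the log2 ratio of gonad over reference for Gng13, and the bar beside each group is the mean ± SD (n = 5). C57BL/6J pairs sit between 1.83 and 2.69, the hybrids between 0.19 and 1.61, and 129S1/SvImJ pairs between -0.52 and 0.25.

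The group means of the log2 ratio were 2.37 ± 0.38 (SD, n = 5) in C57BL/6J, 0.90 ± 0.24 in (129S1xB6)F1, 0.80 ± 0.52 in (B6x129S1)F1 and -0.20 ± 0.31 in 129S1/SvImJ. In this order the hybrids are the only neighbours whose means lie within their spread: they differed by -0.10 (standard error, SE, 0.22; (B6x129S1)F1 minus (129S1xB6)F1). C57BL/6J was 2.58 (SE 0.22) above 129S1/SvImJ on the log2 scale, which is 5.96-fold. The mean of the hybrids was 1.53 below C57BL/6J, 2.88-fold, and 1.05 above 129S1/SvImJ, 2.07-fold (SE 0.19 for each). These differences share arrays. For orientation only, limma called 4.15% of the 23847 genes tested between the strains at an adjusted p under 0.05 (Benjamini-Hochberg), 2.47% higher in C57BL/6J and 1.67% lower. The arrays of the strains did not overlap for 4.24% of genes. As Gng13 was selected on this comparison, nothing is read from its place among them.

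Both channels of the probe show where the ratio comes from. The processed Cy5 signal, in arbitrary units, ran from 1761 to 3930 in C57BL/6J, from 432 to 1492 in the hybrids and from 175 to 409.7 in 129S1/SvImJ. The processed Cy3 signal of the reference ran from 213 to 416 over all arrays. Its group means were 338 for C57BL/6J arrays and 336 for those of 129S1/SvImJ, beside 352 for (129S1xB6)F1 and 340.3 for (B6x129S1)F1, so the groups are parted in the gonad channel and not in the reference channel. On 20 of 20 arrays the Cy5 spot of this probe was well above background, and no spot of it was saturated or flagged as an outlier. In C57BL/6J the low Cy3 signal of 213 belonged to K2, whose Cy5 signal of 2383 was within the range of its group.

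**Figure D2:**
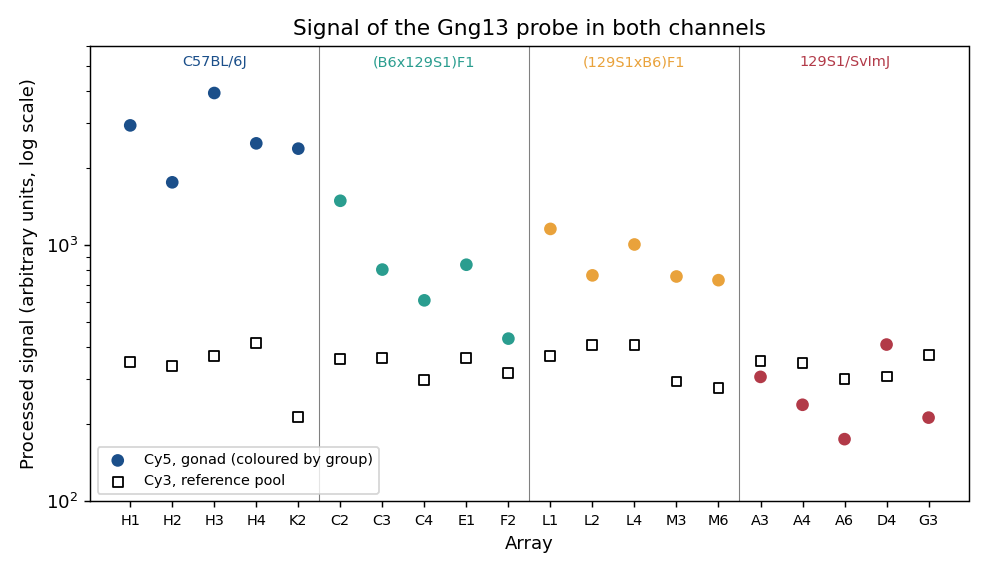
Processed signal of the Gng13 probe on a log axis, in arbitrary units, for each array; filled circles are gonad RNA (Cy5) and open squares the reference pool (Cy3). The circles fall from C57BL/6J through the hybrids to 129S1/SvImJ, while the squares stay between 213 and 416.

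The size of the difference moved with the treatment of background; the part of low signal in this was not tested. With the processed signals that chose the gene, the mean log2 ratio was 2.99 ± 0.49 in C57BL/6J and -0.38 ± 0.51 in 129S1/SvImJ, with 1.32 ± 0.27 in (129S1xB6)F1 and 1.18 ± 0.57 in (B6x129S1)F1. The strain difference was then 3.37, against 1.52 with no background subtraction. The order of the 3 levels, C57BL/6J above the hybrids above 129S1/SvImJ, was the same in all 3 versions.

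The hybrids lay close to the midpoint of the strains on the log2 scale. Their mean was 0.85 against a midpoint of 1.08, a difference of -0.24 (SE 0.16). With the processed signals the difference from the midpoint was -0.05. On the linear scale the picture is another: the mean ratio of gonad over reference was 5.32 in C57BL/6J, 0.885 in 129S1/SvImJ and 1.86 in the hybrids, or 0.599 of the mean of the strains. An intermediate level on the log2 scale is thus nearer to 129S1/SvImJ on the linear one.

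Slides and letters gave the following values. Slide 1 held arrays of the strains only, and slide 5 held only the hybrids C4, E1, M3 and M6, each scanned on a day of its own. The slide 5 arrays were also the dimmest, with a median Cy5 signal net of background of 87.3 to 103.7, against 113 to 207 on the others. In the F1 comparisons group, slide, scan day and signal thus cannot be fully told apart. The strain difference in log2 ratio within a slide was 2.61, 1.90, 3.11 and 2.64 on slides 1 to 4, with 1 or 2 arrays of each strain per slide. The F1 mean minus C57BL/6J was -1.27, -1.96 and -0.68 on slides 2 to 4, and the F1 mean minus 129S1/SvImJ was 0.64, 1.14 and 1.96. The sizes of both varied widely. As every hybrid pair was below every C57BL/6J pair, the sign of the first was fixed. The reciprocal difference was -0.75, 0.20, 0.34 and -0.14 on slides 2 to 5 and so took both signs. In C57BL/6J, 4 pairs share the letter H, with a mean log2 ratio of 2.30, and K2 alone carries another letter, at 2.68. In 129S1/SvImJ the 3 pairs of letter A averaged -0.25, and the single pairs of letters D and G were at 0.25 and -0.52. The within-group SD of Gng13 was 0.37, above that of the median gene tested, 0.18, and at percentile 91.5 of all genes tested.

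No other gamma subunit tested had a strain difference of this size. None of the 6 other members tested was called between the strains, where 4.15% of all genes were. Their strain differences in log2 ratio ran from -0.17 to 0.22, and the 95% intervals of all 6 lay between -0.46 and 0.47. With scale normalization between arrays, which widened the errors, the differences of Gng2, Gng3 and Gng10 turned to 0.16, 0.42 and 0.19, none of them called. None was called in F1 minus C57BL/6J (background 1.69%), F1 minus 129S1/SvImJ (1.34%) or F1 minus the midpoint (0.264%). Between the reciprocal hybrids limma called 0 genes of any kind, 0% of all genes tested, with 598 at an unadjusted p under 0.05. Gng13 was selected on its values and these 6 genes by name, so setting it beside them is a description and no test.

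**Figure D3:**
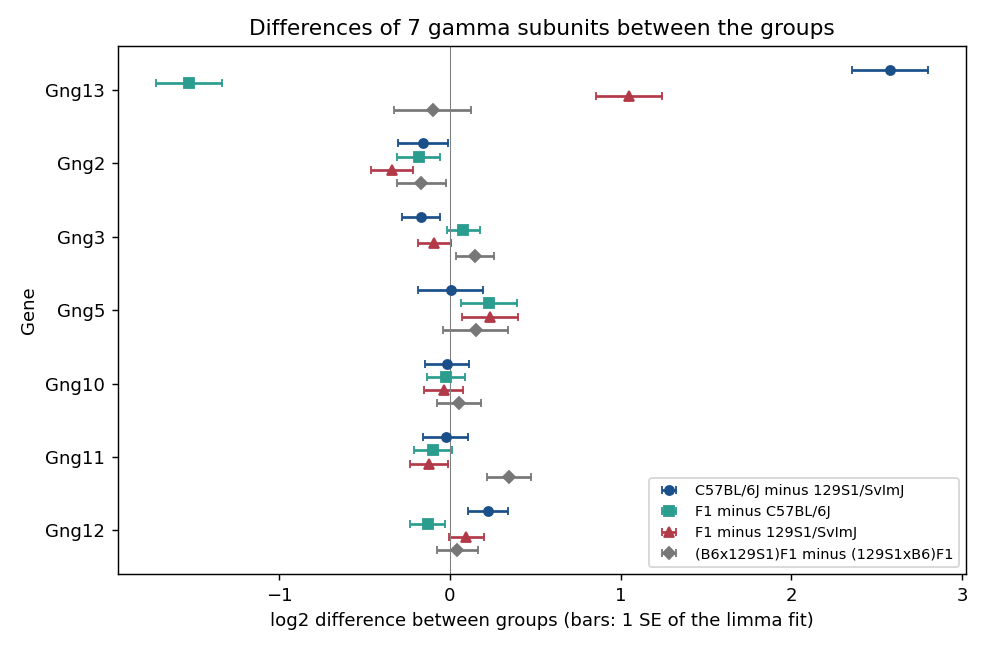
Differences in log2 ratio for the 7 gamma subunits tested, with bars of 1 SE of the limma fit; the symbols stand for the 4 comparisons named in the key. Gng13 lies at 2.58, -1.53 and 1.05 for the strain comparison and the comparisons of the F1 with each strain, and the other subunits stay between -0.34 and 0.35 in all 4.

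Gng2, a gamma subunit found in many tissues, was below the reference in 19 of 20 gonad pairs. Its log2 ratio in 129S1/SvImJ was 0.34 in A3, -0.68 in A4, -0.51 in A6, -0.11 in D4 and -0.15 in G3, a wide spread led by A3. The other groups had means of -0.38 ± 0.17 in C57BL/6J, -0.64 ± 0.19 in (B6x129S1)F1 and -0.48 ± 0.07 in (129S1xB6)F1. Gng2 gave the largest difference of the 6 between the hybrids and a strain, -0.34 (SE 0.13) for F1 minus 129S1/SvImJ, with an adjusted p of 0.24 in limma (unadjusted 0.014). Its second probe gave -0.36 (SE 0.11) for the same comparison.

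Gng11, the relative of the retinal gamma subunits that is common in blood vessels and platelets, was above or at the reference in all groups. Its log2 ratio was 0.68, 0.60, 0.40, 0.19 and 0.84 in (B6x129S1)F1 pairs C2, C3, C4, E1 and F2. In (129S1xB6)F1 it was 0.00 in L1, 0.06 in L2, 0.50 in L4, 0.31 in M3 and 0.09 in M6, so that the crosses overlapped. The reciprocal difference of 0.35 (SE 0.13) had an unadjusted p of 0.015 and an adjusted p of 1.00 in limma. The endothelial marker list, taken beside it, had a mean log2 ratio of 0.19 in (B6x129S1)F1 and 0.20 in (129S1xB6)F1.

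Gng12, which is broadly expressed, came closest to the direction of Gng13. Its log2 ratio was 0.52 ± 0.15 in C57BL/6J and 0.29 ± 0.27 in 129S1/SvImJ, with hybrids at 0.41 ± 0.21 and 0.37 ± 0.08. The strain difference was 0.22 (SE 0.12; adjusted p 0.45 in limma), and the ranges overlapped. Its probes part in the hybrids: F1 minus 129S1/SvImJ was 0.10 (SE 0.10) by the brighter probe and 0.56 (SE 0.17) by the other, both well above background on 20 arrays.

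Gng5, whose brighter probe gave a processed Cy5 signal of 62513 to 164299, differed between the strains by 0.01 (SE 0.19). Its levels in log2 ratio ranged from -0.30 to 1.01 over the 20 pairs, and no spot was saturated. A second Gng5 probe gave a strain difference of -0.06, and the dimmest was well above background on 6 of 20 arrays. Gng10 averaged from -0.71 to -0.64 in the 4 groups and differed between the strains by -0.02 (SE 0.13).

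Gng3, a gamma subunit of neurons, was below the reference in 20 of 20 pairs. Its mean log2 ratio was -2.10 ± 0.06 in C57BL/6J and -1.93 ± 0.24 in 129S1/SvImJ, beside -2.10 ± 0.18 in (129S1xB6)F1 and -1.95 ± 0.20 in (B6x129S1)F1. Its second probe averaged from -2.53 to -2.33. The strain difference was -0.17 (SE 0.11). The neuron marker list moved the same way against the reference, which contains whole embryos: 0 of its 8 tested genes were above the reference, and the list averaged from -2.33 to -2.20 in the 4 groups. Gng4, another neuronal subunit, was well above background on 4 of 20 arrays, 1 in each group, and was not tested. Of the gamma subunits that are not members, Gng7, Gng8 and Gngt2 were tested, with strain differences of -0.14, -0.18 and -0.11. In any comparison 0 of 3 were called, where at most 4.15% of all genes were, so the count says little.

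**Figure D4:**
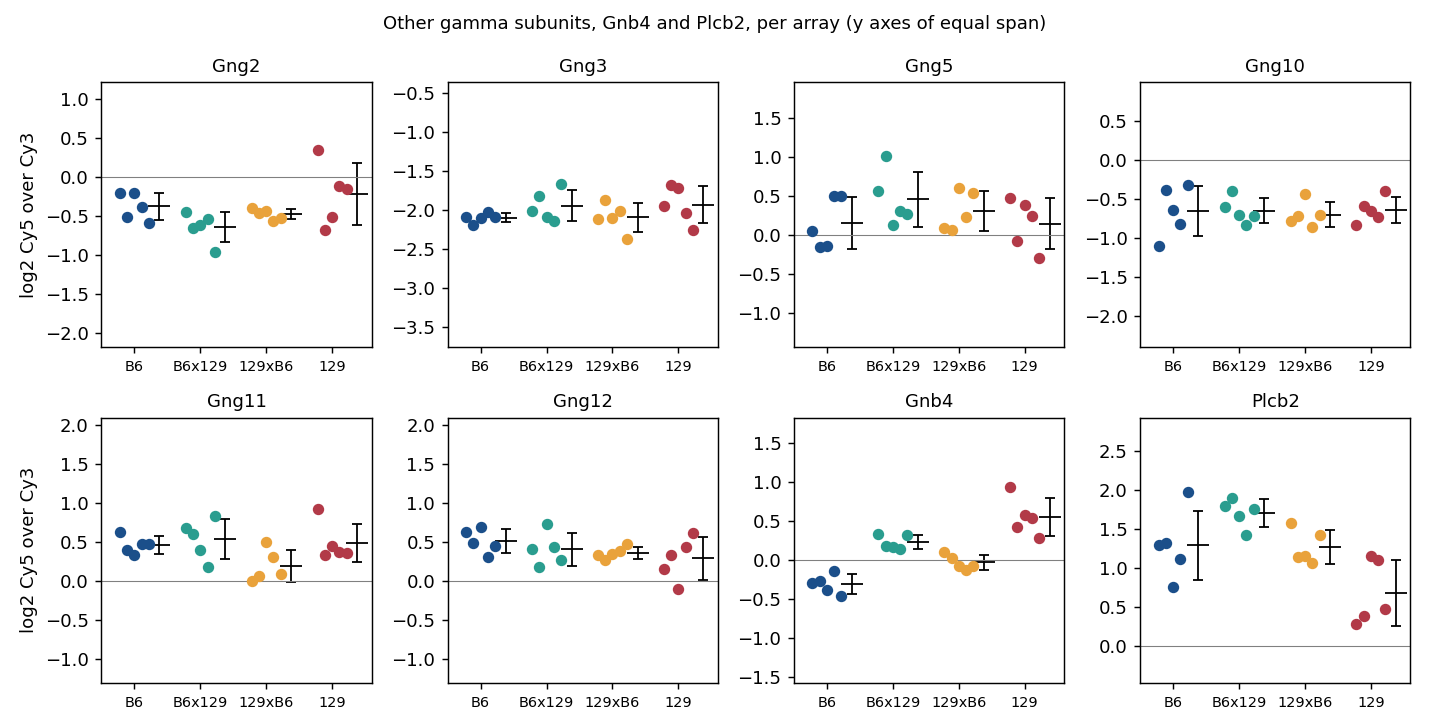
Log2 ratio of gonad over reference per array (points) with mean ± SD (n = 5) beside each group, for 6 gamma subunits, the beta subunit Gnb4 and the phospholipase Plcb2; B6, B6x129, 129xB6 and 129 stand for C57BL/6J, (B6x129S1)F1, (129S1xB6)F1 and 129S1/SvImJ. The gamma subunits overlap between the strains, and Gnb4 rises from C57BL/6J to 129S1/SvImJ without overlap of the strains.

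Among the beta subunits, the partners of gamma, 1 of 5 was called between the strains, where 4.15% of all genes were: Gnb4 was lower in C57BL/6J. Its log2 ratio in C57BL/6J was -0.29 in H1, -0.27 in H2, -0.39 in H3, -0.14 in H4 and -0.47 in K2. In 129S1/SvImJ it was 0.93 in A3, 0.42 in A4, 0.58 in A6, 0.54 in D4 and 0.28 in G3. The strains did not overlap, and the direction is opposite to that of Gng13. The hybrids were between the strains, at 0.23 ± 0.09 in (B6x129S1)F1 and -0.03 ± 0.10 in (129S1xB6)F1. C57BL/6J minus 129S1/SvImJ was -0.86 (SE 0.10; adjusted p 8.5e-06 in limma), a 1.82-fold lower level. The F1 mean differed from both strains, by 0.41 from C57BL/6J (adjusted p 0.012) and by -0.45 from 129S1/SvImJ (adjusted p 0.0065).

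The Gnb4 result rests on the brightest of 3 probes. Another probe, well above background on 20 arrays, gave a strain difference of -0.22 (SE 0.13), and the remaining one, well above background on 17, gave 0.23 (SE 0.06) with the opposite sign. With the mean of the probes, the strain difference was -0.29 and still called (adjusted p 0.0052 in limma), while F1 minus C57BL/6J was 0.08 and no longer called (adjusted p 0.61). With slide as a block, F1 minus 129S1/SvImJ was -0.35 and was no longer called (adjusted p 0.16). The other beta subunits were not called between the strains: Gnb2 differed by 0.33 (SE 0.23), Gnb1 by 0.09 (SE 0.11), and Gnb3 and Gnb5 by 0.00 each (SE 0.07 and 0.08).

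Alpha subunits, which bind the nucleotide, gave 0 calls of 15 tested between the strains (4.15% over all genes), with a median difference of 0.04 against 0.00 over all genes. The smallest p-values were those of Gnai1, at -0.53 (SE 0.22; adjusted p 0.26), and Gnai2, at 0.59 (SE 0.28; adjusted p 0.36). The effectors and partners of the beta-gamma dimer gave 0 higher and 2 lower of 24 tested, with a median of 0.01; over all genes 2.47% were called higher and 1.67% lower. The lower genes were Pik3cg, the catalytic subunit of PI3-kinase gamma, at -0.38 (SE 0.08; adjusted p 0.0085), and Plcb4, a phospholipase C, at -0.39 (SE 0.10; adjusted p 0.033). With no background subtraction the differences were -0.10 for Pik3cg and -0.11 for Plcb4, both still called, and with processed signals they were -0.78 and -1.01. With the mean of its probes Plcb4 was at -0.20 and no longer called (adjusted p 0.094). Without the hybrid arrays the adjusted p of Pik3cg was 0.073, while that of Plcb4 was 0.054 with the slide as a block and 0.073 with the letter as a random block. Plcb4 also lost its call without any 1 of 6 arrays: its adjusted p was 0.053 without A3, 0.093 without A6, 0.067 without G3, 0.087 without H1, 0.068 without H4 and 0.068 without K2. Regulators of G proteins gave 0 calls of 20 against the same 4.15%, with a median of 0.01. Rgs5, a GTPase activator of pericytes, was at -1.06 (SE 0.33, adjusted p 0.089 in limma) and Rgs10 at 0.38 (SE 0.17, adjusted p 0.32).

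Plcb2 was named after its values were seen, because it is the phospholipase that works with gamma 13 in taste cells. Its log2 ratio was 1.29 ± 0.44 in C57BL/6J and 0.68 ± 0.42 in 129S1/SvImJ, beside 1.27 ± 0.22 in (129S1xB6)F1 and 1.71 ± 0.18 in (B6x129S1)F1. The means of the hybrids were thus at or above that of C57BL/6J. The strain difference was 0.61 (SE 0.20; adjusted p 0.11 in limma). F1 minus 129S1/SvImJ was 0.81 (SE 0.17; adjusted p 0.021), the single call of the effector list in that comparison (1.34% over all genes). It fell to 0.25 with no background subtraction (adjusted p 0.20), to 0.24 with the mean of its probes (0.15) and to 0.56 with scale normalization (0.13), and was not called in these fits. It was also lost without A3 (adjusted p 0.082), A4 (0.059) or G3 (0.076), and without H3 the strain difference rose to 0.75 and was called (adjusted p 0.042). A second Plcb2 probe, also well above background on 20 arrays, gave -0.06 (SE 0.06) and -0.08 (SE 0.05) for these comparisons. Trpm5, the taste cell channel, chosen in the same way, had a strain difference of 0.30 (SE 0.10, adjusted p 0.11 in limma). Itpr3, of the same list and also named after its values were seen, had 0.08 (SE 0.16, adjusted p 0.94).

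Of 10 tested genes of the ovarian pathway, 9 had a strain difference above 0, the direction of Gng13. Foxl2 is counted among them at 0.00044 (SE 0.08), which is no difference. In limma 2 were called higher in C57BL/6J. They were Fst, the activin antagonist follistatin, by 1.00 (SE 0.17, adjusted p 0.0011) and Lef1, a WNT transcription factor, by 0.68 (SE 0.16, adjusted p 0.014). Over all genes 2.47% were called higher. Lef1 was at 0.28 and not called with the mean of its probes (adjusted p 0.19). The list was chosen with earlier results of these data known and is no independent evidence of its direction. Its median strain difference was 0.58, against 0.00 over all genes. The position of the hybrids was not the same. Fst averaged -0.60 in the hybrids against 0.45 in C57BL/6J and -0.56 in 129S1/SvImJ, and its F1 minus C57BL/6J of -1.04 was called (adjusted p 0.00061 in limma). Lef1 averaged 0.37, between 0.71 and 0.02. Over the 20 arrays the correlation of Gng13 with Fst was 0.69 and with Lef1 0.67. After each group's mean was taken off, it was -0.09 and 0.11, so the correlation over all arrays lay in the group means. These were the 2 highest of the list over the arrays. For its remaining tested genes the correlation ran from -0.19 (Foxl2) to 0.48 (Bmp2) over the arrays. With the group means taken off it ran from -0.55 (Msx1) to 0.45 (Axin2).

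The tissue label was checked with marker genes of gonadal cells. Of the gonadal somatic markers, 6 of 7 were above the reference, and the list averaged 2.41 in C57BL/6J (2.22 to 2.58 per array) and 2.04 in 129S1/SvImJ (1.64 to 2.39). The hybrids averaged 2.24 for (129S1xB6)F1 and 2.05 for (B6x129S1)F1. The list mean was thus higher in C57BL/6J, though the ranges of the strains overlapped. The strain difference was above 0 for 6 of 7 genes, with only 0.04 for Nr5a1, and was -0.25 for Cbx2. Emx2, a transcription factor of the early gonad, was the 1 of 7 called, at 1.05 (SE 0.25, adjusted p 0.015 in limma). With scale normalization Emx2 was not called (0.73, adjusted p 0.37). Calls between the strains, 4.15% over all genes, were 0 of 5 for supporting cells of the testis, 0 of 7 for germ cells, 0 of 8 for neurons, 0 of 6 for endothelial cells, 0 of 5 for macrophages and 0 of 5 for erythroid cells. Lhx1, a mesonephric gene, had a difference of -0.54 (SE 0.12; adjusted p 0.015), 1 of 6 in its list, which was not called with scale normalization or the mean of its probes (adjusted p 0.38 and 0.33). Its F1 minus C57BL/6J of 0.46 (adjusted p 0.034) was not called in 15 of 27 alternatives. Hsd3b1, a steroid enzyme, had a difference of -1.06 (adjusted p 0.0089), 1 of 5 in its list, and was not called with the strain arrays alone (adjusted p 0.071).

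The germ cell list had its highest mean log2 ratios in the hybrids. It averaged 2.14 in (B6x129S1)F1 and 2.19 in (129S1xB6)F1, against 1.40 in C57BL/6J and 1.62 in 129S1/SvImJ. The F1 mean of 7 of 7 genes lay above that of each strain. Over 129S1/SvImJ the smallest of these differences were 0.00099 for Dazl, which is none, and 0.10 for Pou5f1. Called higher were 2 of 7 in F1 minus C57BL/6J (1.69% over all genes) and 1 of 7 each in F1 minus 129S1/SvImJ (1.34%) and F1 minus the midpoint (0.264%). These genes were named after their values were seen. Ddx4, the germ cell helicase Vasa, averaged 3.26 in the hybrids, 2.11 ± 0.50 in C57BL/6J and 1.73 ± 0.59 in 129S1/SvImJ. Its differences were 1.16 from C57BL/6J (adjusted p 0.028 in limma), 1.53 from 129S1/SvImJ (0.0040) and 1.34 from the midpoint (0.0084). With slide as a block these were 0.92, 1.30 and 1.11, none of them called (adjusted p 0.16, 0.060 and 0.18), and none was called with scale normalization. The difference from C57BL/6J was not called in 13 of 27 alternatives, among them those without C3, C4, M3, M6, H1, H2, H3 or H4 (adjusted p 0.051 to 0.11). Dppa3, a gene of early germ cells, was 1.22 above C57BL/6J at an adjusted p of 0.0498, and was not called in 20 of 27 alternatives, with 0.48 by processed signals (adjusted p 0.23). Supporting cells of the testis averaged 1.74 in (B6x129S1)F1 and 1.17 in (129S1xB6)F1, against 0.86 and 0.79 in C57BL/6J and 129S1/SvImJ, with 0 of 5 called in any comparison. The part of these cell types in the Gng13 values was not tested. In RNA of whole gonads, more cells of a type and more RNA per cell cannot be told apart.

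None of the nearest tested genes was called between the strains, where 4.15% of all genes were. They were the 3 tested genes on each side of Gng13 in the gene table, Sox8, Cerox1 and Lmf1 before and Chtf18, Rpusd1 and Mslnl after. Beside that share, 0 of 6 says little. Sox8, a relative of the testis gene Sox9, had a strain difference of -0.08 (SE 0.12), and Chtf18, whose end overlaps that of Gng13, had 0.05 (SE 0.17). Within 1 Mb, a span set after the data were seen, 1 of 75 tested genes was called, 1.33%, against 4.15% of all genes. It was Gnptg, also named after its values were seen, a subunit of the phosphotransferase that tags lysosomal enzymes, at 0.41 (SE 0.10; adjusted p 0.029). That call was lost without A6, G3, H1, H2, H3 or H4 (adjusted p 0.054 to 0.086), and with the mean of its probes the difference was 0.15 (adjusted p 0.24). A second Gnptg probe, well above background on 1 array, gave -0.10.

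**Figure D5:**
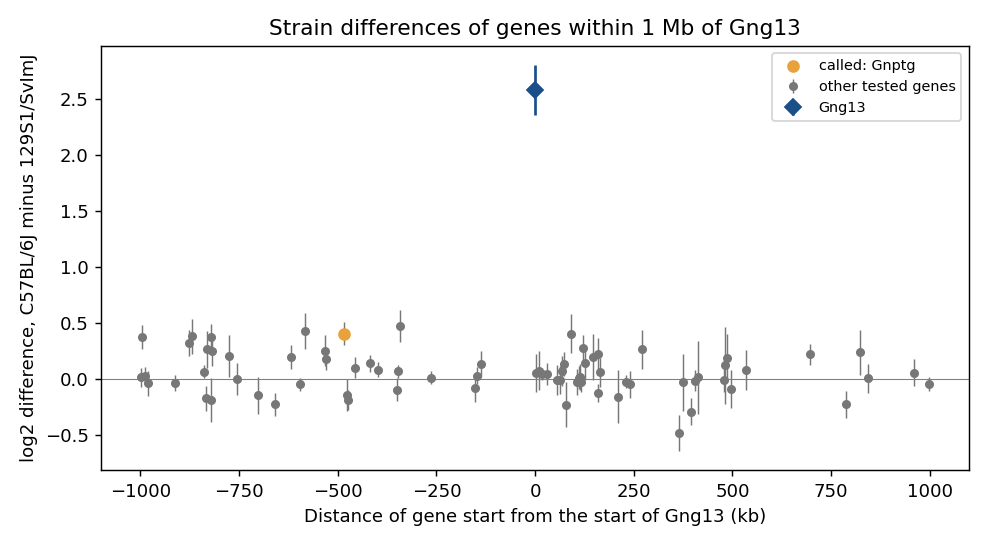
Strain difference in log2 ratio, with bars of 1 SE, of Gng13 and the 75 other tested genes within 1 Mb, against the distance in kb between gene starts in GRCm38.p6. Gng13 stands at 2.58, and the genes on either side of it lie near 0.

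By Pearson's r over the 20 arrays, the named genes most like Gng13 were Pla2g4b (0.96), Kbtbd2 (0.94), Slc1a5 (0.93), Atf7ip (0.93) and Cyb5b (0.93), given as a description. They lie on chromosomes 2, 6, 7, 6 and 8, and the arrays share their reference and their 4 groups. Each shared the order of Gng13, which follows from choosing them by r over these arrays. Slc1a5, an amino acid transporter, was at -0.38 ± 0.23 in C57BL/6J, -1.17 in the hybrids and -1.83 ± 0.19 in 129S1/SvImJ. Pla2g4b, a phospholipase, was at -0.04 ± 0.26, -0.78 and -1.29 ± 0.22 in the same order, and its 3 probes gave strain differences of 1.25, 1.13 and 1.49. The 4 probes of Atf7ip did not move together, with strain differences from -0.26 to 0.94. Without H3 and K2, the arrays farthest from the median of Gng13, the 5 correlations were 0.90 to 0.95.

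After the group means were taken off, other genes came first: Mocs3 (0.92), Tprn (0.88), Plcd1 (0.88), Bpifb6 (0.86) and Fdx2 (0.85). Without C2 and F2, the arrays farthest from their group mean, these were 0.76 to 0.89. The 6 gamma subunits tested had correlations with Gng13 of -0.36 to 0.45 over the arrays and -0.15 to 0.34 with the group means taken off. The median r over the arrays was 0.01 for the 23782 genes without missing values. Genes picked for the highest r among so many are no measure for genes chosen by name.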

How the data were processed

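Single pairs of XY gonads were profiled on 20 arrays of 2 colours. Per the file headers, the deposited scanner files hold spot intensity in both channels, written by Agilent Feature Extraction 9.1.3.1; the authors also deposited processed intensity and a table of log2 ratios, both used as alternatives. The build is not given in the sources used here. Mean signals were corrected with normexp (offset 50) and loess within arrays in limma 3.58.1 (R 4.3.3). The brightest probe stood for a gene, and it was tested if any group had 4 or more of its 5 Cy5 spots well above background, which left 23847 genes. The share of probes above background was 78.4% to 88.3% per array. One model with the 4 groups gave moderated statistics, with Benjamini-Hochberg adjustment over all genes for each of 5 comparisons; the number of arrays limits the precision. The fit was tested on simulated data. Members and lists were chosen with earlier results of these data known. The text names every member, all beta subunits, the genes of each list called between the strains or with the smallest p there, genes said to be named after their values were seen, 3 neighbours on each side and the 5 genes most like Gng13 by each measure. Symbols follow the RefSeq gene table of GRCm38.p6.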

Additional observations from a re-analysis of the deposited data

Results flagged for a closer look

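One group of values stood apart in the checks of the 7 gamma subunits tested. For Gng11 in 129S1/SvImJ, pair A3 had a log2 ratio of 0.93 and the other 4 pairs lay between 0.33 and 0.45. The gap between A3 and the next pair was 0.801 of the range of the group. In all, 28 groups of 5 arrays were checked and 1 was past the value, while chance flags about 1 in 20 groups. Without A3 the strain difference of Gng11 was 0.08 in place of -0.02. A3 was also the highest of its group for Gng2, at 0.34, and for Gnb4, at 0.93.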

How the results depend on the processing

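The order of the 3 Gng13 levels, C57BL/6J above the hybrids above 129S1/SvImJ, was the same under 12 other settings, with strain differences of 1.52 to 3.40, and in each fit that left out 1 array (2.49 to 2.71). As the strains did not overlap, leaving out 1 array could not reverse them. Gng13 was selected on these values, so its order is a description and no test. The order of the hybrids did change: (B6x129S1)F1 minus (129S1xB6)F1 ran from -0.30 to 0.051, above 0 without F2. With no background subtraction its strain difference was 1.52, F1 minus C57BL/6J was -1.03 and F1 minus 129S1/SvImJ was 0.48. The last was 1.63 with processed signals and 1.62 with the deposited table, with strain differences of 3.37 and 3.40. The number of other members called was 0 in every alternative.

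Genes called between the strains were 634 with the strain arrays alone. Between the reciprocal hybrids there were 2 with no background subtraction, processed signals, the deposited table or scale normalization, and 1 with those arrays alone. For F1 minus C57BL/6J, 404 became 236 with scale normalization, 258 with slide as a block, 210 with the letter as a random block (correlation 0.11) and 221 (without H2; 233 without H3) to 396 when 1 array was left out. For F1 minus 129S1/SvImJ, 319 became 126 with slide as a block and 175 (without G3; 211 without A3) to 418 (without A6). For F1 minus the midpoint, 63 became 16 with no background subtraction, 13 with scale normalization, 9 with slide as a block, 29 with the letter and 27 (without M6) to 81 when 1 array was left out, with 31 without H3, 32 without H2 or C4 and 39 without G3.

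Small differences of uncalled members changed sign in 57 of 774 alternatives, with adjusted p of at least 0.46 in limma. For the strains these were Gng5 (-0.0024 with offset 16, -0.0025 with no background subtraction, -0.014 processed, -0.027 deposited, -0.022 mean of probes) and, with scale normalization, Gng2 (0.16), Gng3 (0.42) and Gng10 (0.19). For F1 minus C57BL/6J they were Gng10 (0.0024 with no subtraction, 0.027 with scale), Gng12 (0.077, mean of probes) and Gng11 (0.043, slide). For F1 minus 129S1/SvImJ they were Gng3 (0.061 with no subtraction, 0.67 with scale), Gng2 (0.014), Gng10 (0.22) and Gng12 (-0.074) with scale, and Gng11 (0.018, slide). For the midpoint they were Gng3 (0.088 with no subtraction, 0.0034 deposited, 0.45 scale, 0.063 slide, 0.0028 letter), Gng10 (0.12, scale), Gng12 (0.20, mean of probes) and Gng11 (0.030, slide). Gng12 between the hybrids was -0.057 with the mean of probes. Leaving out 1 array gave ranges across 0: between the hybrids Gng10 -0.010 to 0.12 and Gng12 -0.036 to 0.10; for F1 minus C57BL/6J Gng10 -0.13 to 0.062; for F1 minus 129S1/SvImJ Gng10 -0.084 to 0.024 and Gng12 -0.0016 to 0.18; for the midpoint Gng3 -0.046 to 0.030, Gng10 -0.085 to 0.013 and Gng12 -0.065 to 0.024; for the strains Gng5 -0.11 to 0.087, Gng10 -0.099 to 0.098 and Gng11 -0.066 to 0.084. The cause was not tested.

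Gnb4 between the strains was called in every alternative (highest adjusted p 0.0052 in limma). Its F1 minus C57BL/6J was not called with scale normalization (adjusted p 0.14) and its F1 minus 129S1/SvImJ not with the mean of probes (0.055). Plcb4 between the strains had an adjusted p of 0.011 to 0.094 and Pik3cg of 0.00091 to 0.073 over the alternatives. Plcb2 in F1 minus 129S1/SvImJ ran from 0.011 to 0.20, and was not called with slide as a block (0.11). Of the 5 genes most like Gng13, 3 were again among the first 5 with processed signals and 2 by Spearman's rho; within groups, 2 and 2. The numbers in the sample names recur within a group (A4 and D4, H2 and K2), so no paired analysis was possible because they name no pairs across groups; slide served as the block. For the called marker, ovarian pathway and nearby genes the same alternatives were added after seeing the data. Low signal limits Gng4.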
